A study of Mus musculus with 10 samples.

Results

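Cystatin C (*Cst3*) and 8 cathepsins (*Ctsa*, *Ctsb*, *Ctsc*, *Ctsd*, *Ctsf*, *Ctsk*, *Ctsl* and *Ctsz*) were described in lineage-traced skeletal cells of the mouse hind limb. These 9 genes were taken by name from the 29183 genes with a row in the count tables of both lineages. Cells were sorted singly into 96-well plates, and their cDNA carried unique molecular identifiers (UMIs), so that copies of a molecule made by PCR count once. *Grem1*-TdT mice carry the tamoxifen-inducible *Grem1*-creERT driver and a Rosa-TdTomato reporter, and were given tamoxifen chow for 2 weeks from 5 to 6 weeks of age. *Lepr*-TdT mice of paired age carry the constitutive *Lepr*-cre driver with the same reporter, and all mice were labelled C57BL/6. *Grem1*-lineage cells came from excised articular cartilage (AC) and growth plate (GP), and *Lepr*-lineage cells from whole bones after removal of CD45, Ter119 and CD31 positive cells, a step not given for the *Grem1* lineage. There were 8 *Grem1*-lineage plates (numbered 1, 2 and 4 to 9) and, for the *Lepr* lineage, plates 1 and 2, and the plate is the replicate. Since the sources used here do not give the mice on each plate, or whether a plate holds AC cells, GP cells or both, p-values measure the spread between plates. *Grem1*-lineage tissue was minced and digested in collagenase type II, and *Lepr*-lineage bones were also crushed and digested in type I. Tamoxifen chow is given for the *Grem1* lineage only. Driver, tamoxifen, dissected tissue, digestion and sort thus go together with the lineages and cannot be told apart.

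Cystatin C is a secreted inhibitor that blocks papain-like cysteine proteases outside and inside the cell. Most cathepsins are proteases of the lysosome, which is kept acidic by the vacuolar proton pump (V-ATPase), and they digest proteins taken up or made by the cell. They belong to different catalytic classes. *Ctsb*, *Ctsc*, *Ctsf*, *Ctsk*, *Ctsl* and *Ctsz* encode cysteine proteases, *Ctsd* an aspartic protease and *Ctsa* a serine carboxypeptidase. In bone, cathepsin K is best known as the collagen-degrading enzyme of osteoclasts, and in cartilage both the proteases and their inhibitor take part in matrix turnover.

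Of 768 *Grem1*-lineage wells, 684 had at least 350 detected genes and were kept, and of 162 *Lepr*-lineage wells 160 were kept. This minimum was taken over the genes listed for each lineage, 29183 for *Grem1* and 50508 for *Lepr*, so it was not equal. Taken over the shared genes, it would keep 684 *Grem1*-lineage cells but only 77 *Lepr*-lineage cells. Over the shared genes, the kept cells of a plate held 133289 to 179071 UMIs in the *Grem1* lineage and 59981 and 64310 in the *Lepr* lineage, and the median cell held 1472.5 and 505 UMIs. Of 6 marrow stromal markers listed in both tables (of 9), the sum was 26559 and 36945 CPM (a gene's or list's UMIs per 1000000 UMIs counted) on the *Lepr*-lineage plates and at most 110 CPM in *Grem1*-lineage sums, while 9 listed chondrocyte markers (of 11) reached 121238 CPM or more in every *Grem1*-lineage sum. Neutrophil transcripts stood out on the *Lepr*-lineage plates. The 3 listed markers *Camp*, *Elane* and *Fcnb* (of 9), none of them at 0, summed to 19139 and 24848 CPM there, against 0.0 to 3572 CPM in *Grem1*-lineage sums. The 11 listed macrophage markers (of 14) summed to 1367 and 2768 CPM against 0.0 to 752 CPM, with *Adgre1*, *C1qa* and *C1qc* at 0 in the *Lepr* lineage. The 5 listed osteoclast markers (of 9) stayed at 46.6 and 50.02 CPM against 0.0 to 230 CPM, with *Atp6v0d2* and *Calcr* at 0 in all cells. Over all plates 96 distinct well barcodes occurred and 70 occurred on every plate, so cells were told apart by plate and barcode.

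*Grem1*-lineage cells were divided by 4 genes, none of them a cathepsin or *Cst3*. A cell was called articular-signature where its *Clu*, *Cilp* and *1500015O10Rik* UMIs together exceeded its *Cnmd* UMIs, and *Cnmd*-signature otherwise. *Clu* and *Cilp* are known from articular cartilage, and *Cnmd* (chondromodulin) from chondrocytes including those of the growth plate. This gave 414 articular-signature cells, with a median of 47 UMIs of the 3 genes and 5 of *Cnmd*, and 270 *Cnmd*-signature cells, with medians of 10.5 and 59.5. Each plate gave 43 to 68 articular-signature and 26 to 40 *Cnmd*-signature cells. Of 10 growth plate chondrocyte markers, 4 were listed, with *Cnmd* of the split among them, and they did not all go one way. *Col10a1* was at 5389 CPM over all articular-signature cells and at 1485 CPM over all *Cnmd*-signature cells. In the same order *Epyc* was at 54.8 and 1152 CPM and *Fgfr3* at 253 and 326 CPM. Of the 12 articular chondrocyte markers, 9 were listed, the 3 genes of the split among them. They summed to 41583 to 53868 CPM in articular-signature sums against 4006 to 7037 CPM in *Cnmd*-signature sums. The 3 genes hold most of this, at 16424 (*Clu*), 11443 (*Cilp*) and 16841 CPM (*1500015O10Rik*) in articular-signature cells, so the sums largely follow from the split. Outside it, *Gas1* was at 2889 against 93.5 CPM, *Cilp2* at 1290 against 123 and *Abi3bp* at 840 against 58.2. *Creb5* was at 393 against 24.5 CPM, *Erg* at 142 against 9.19 and *Dkk3* at 66.1 against 4.60.

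The first question was whether the inhibitor and the proteases differ between the lineages. *Cst3* was lower in the *Lepr* lineage by 3.93-fold and *Ctsl*, an endopeptidase with broad specificity, was higher by 3.89-fold, while no other of the 9 genes passed the test. Thus 2 of 9 passed an adjusted p of 0.05 (edgeR quasi-likelihood test, Benjamini-Hochberg over 2944 genes), when 29.0% of all tested genes did, 12.2% higher and 16.8% lower in the *Lepr* lineage. The median log2 fold change (*Lepr* minus *Grem1*) was 0.22 over the 9 genes and -0.11 over all genes tested. CPM values from here on carry TMM normalisation within the comparison they are given for, so the scales of the lineage and cell group comparisons differ. In sums of cells, fewer cells that express a gene and less RNA per cell cannot be told apart.

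**Figure D1:**
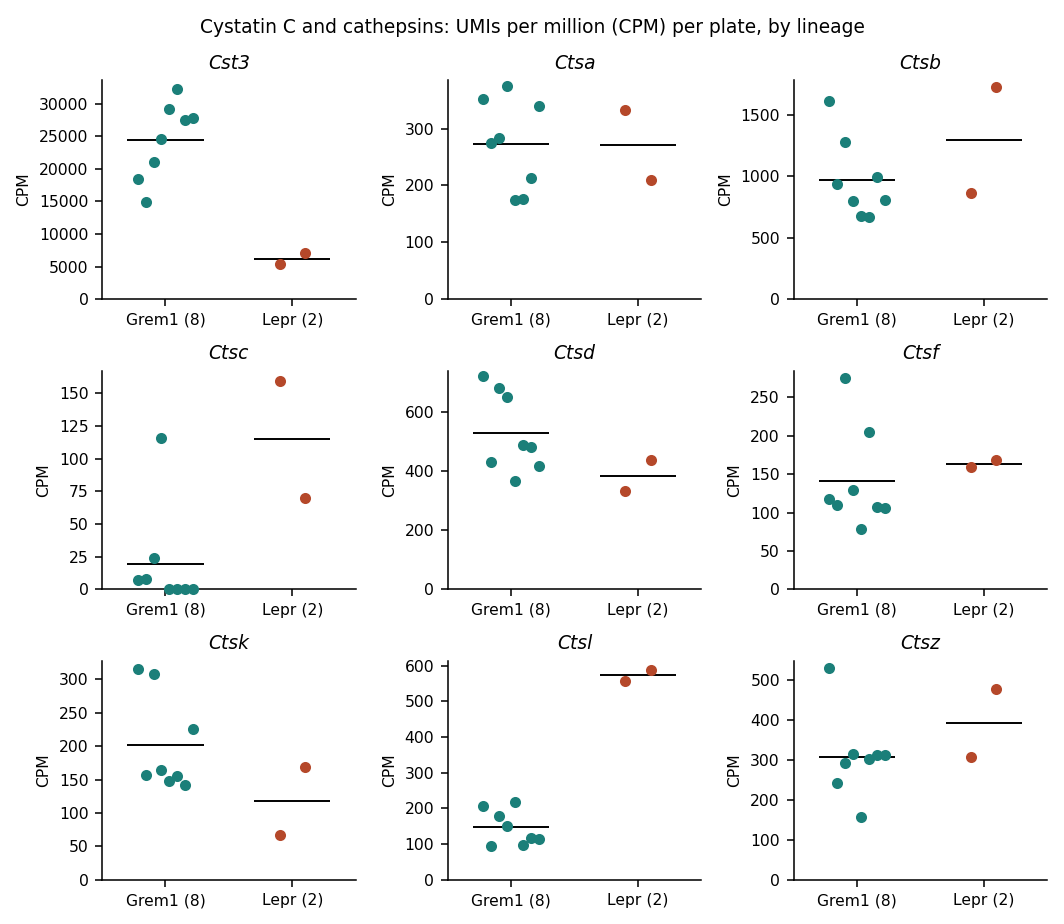
UMIs per 1000000 (CPM, vertical axes from 0, a scale for each gene) of cystatin C and 8 cathepsins on 8 *Grem1*-lineage and 2 *Lepr*-lineage plates. Points are plates and lines are means. For *Cst3* both *Lepr*-lineage plates lie below all *Grem1*-lineage plates (7042 CPM at most against 14935 at least), for *Ctsl* both lie above (558 CPM at least against 217 at most), and in the other 7 panels the lineages overlap.

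*Cst3* ranged from 14935 to 32273 CPM on the *Grem1*-lineage plates, with a median of 26040, and was 5404 and 7042 CPM on the *Lepr*-lineage plates. The groups did not overlap, as for 20.8% of tested genes in this direction. The mean was 24466 ± 5866 (SD, n = 8) against 6223 ± 1158 (SD, n = 2), a log2 fold change of -1.98 (SE 0.41, edgeR adjusted p = 0.00196). Every kept *Grem1*-lineage cell had a *Cst3* UMI, with a median of 24 UMIs per cell and an interquartile range of 14 to 46.25. In the *Lepr* lineage 150 of 160 cells had one, with a median of 4 UMIs. Against articular-signature cells only, the log2 fold change was -2.67 (SE 0.52, edgeR adjusted p = 0.000992). Against *Cnmd*-signature cells only it was -0.78 (SE 0.42) and did not pass (edgeR adjusted p = 0.17). It also did not pass on plates 1 and 2 of each lineage (-1.37, edgeR adjusted p = 0.135).

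*Ctsl* ranged from 93.9 to 217 CPM on the *Grem1*-lineage plates, with a median of 133, and was 558 and 589 CPM on the *Lepr*-lineage plates. Again the groups did not overlap, as for 17.4% of tested genes in this direction. The mean was 146 ± 48.8 (SD, n = 8) against 573 ± 22.3 (SD, n = 2), a log2 fold change of 1.96 (SE 0.30, edgeR adjusted p = 0.000187). The log2 fold change was 1.42 (edgeR adjusted p = 0.00603) against articular-signature cells and 2.79 (edgeR adjusted p = 4.2e-06) against *Cnmd*-signature cells. These values rest on 84 UMIs in 60 of 160 *Lepr*-lineage cells and 148 UMIs in 119 of 684 *Grem1*-lineage cells, with no cell above 4 UMIs. Of the 84 UMIs, 82 lay in the 149 cells with at least 5 UMIs of *Cxcl12*, a marrow stromal chemokine, which hold 119010 UMIs of all genes against 5281 in the other 11 cells. *Ctsl* was at 689 and 379 CPM in them without normalisation. Sorted by UMIs of the 19 listed neutrophil, macrophage and osteoclast markers, *Ctsl* was at 1102 CPM in the 5 *Lepr*-lineage cells with 0 or 1 such UMI (3 *Ctsl* UMIs), at 881 CPM in the 137 cells with 2 to 19 and at 347 CPM in the 18 cells with 20 or more.

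Among the other cysteine cathepsins, *Ctsb*, both an endopeptidase and a carboxypeptidase, ranged from 663 to 1607 CPM on the *Grem1*-lineage plates, with a median of 873, and was 863 and 1725 CPM on the *Lepr*-lineage plates. The groups overlapped, at a log2 fold change of 0.41 (SE 0.34, edgeR adjusted p = 0.377). Against *Cnmd*-signature cells only *Ctsb* passed (0.80, edgeR adjusted p = 0.0491), and against articular-signature cells only it did not (0.27, edgeR adjusted p = 0.616). *Ctsk* ranged from 142 to 315 CPM, with a median of 160, against 66.4 and 168 CPM, a log2 fold change of -0.79 (SE 0.46, edgeR adjusted p = 0.206). *Ctsf* was 0.22 (SE 0.45) and *Ctsz*, a carboxypeptidase, 0.34 (SE 0.34) on the log2 scale, and both overlapped. With the gene minimum taken over the shared genes, which left 77 *Lepr*-lineage cells, *Ctsk* passed (-1.90, edgeR adjusted p = 0.0183). Without *Lepr*-lineage plate 2 *Ctsk* was at -1.65. The 5 listed osteoclast markers held 36 UMIs in articular-signature, 12 in *Cnmd*-signature and 6 in *Lepr*-lineage cells, and their part in the *Ctsk* values was not tested. No *Ctsk*-positive cell in either lineage held more than 5 *Ctsk* UMIs.

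*Ctsc* encodes a dipeptidyl peptidase that activates the granule proteases of leukocytes. It was at 159 and 70.1 CPM on the *Lepr*-lineage plates and at 0 on 4 of the 8 *Grem1*-lineage plates, with 7.34, 7.82 and 24.3 CPM on plates 1, 2 and 4 and 116 CPM on plate 5. The log2 fold change of 2.40 (SE 1.06) did not pass (edgeR adjusted p = 0.0973). Without *Grem1*-lineage plate 5 it was 4.07 (edgeR adjusted p = 0.00176). Of the 22 *Grem1*-lineage UMIs, 11 lay in 1 cell of plate 5 with 48 UMIs of neutrophil, macrophage and osteoclast markers, and of the 17 *Lepr*-lineage UMIs, 6 lay in 1 cell of plate 1 with 79. In the *Lepr* lineage the 18 cells with 20 or more such marker UMIs held 48962 UMIs of all shared genes, against 72607 in the 137 cells with 2 to 19. In the *Grem1* lineage 7 such cells held 33962 UMIs, against 1040730 in the 630 cells with 0 or 1. The share of these cells in the lineage values was measured by leaving out the 18 *Lepr*-lineage and 7 *Grem1*-lineage cells, a choice made after the values were seen. Then 4 of the 9 genes passed, when 24.7% of 2916 tested genes did. *Ctsc* reached 3.14 (edgeR adjusted p = 0.0307) and *Ctsb* 0.89 (edgeR adjusted p = 0.0382), while *Cst3* was at -1.83 (edgeR adjusted p = 0.00251) and *Ctsl* at 2.35 (edgeR adjusted p = 2.0e-05).

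*Ctsd* and *Ctsa*, the aspartic and the serine protease, did not pass. *Ctsd* ranged from 365 to 719 CPM in the *Grem1* lineage, with a median of 484, and was 332 and 435 CPM in the *Lepr* lineage, a log2 fold change of -0.47 (SE 0.30, edgeR adjusted p = 0.265). *Ctsa*, which also protects other lysosomal enzymes from breakdown, ranged from 174 to 375 CPM, with a median of 278, against 332 and 210 CPM, a log2 fold change of -0.02 (SE 0.34, edgeR adjusted p = 0.975). Both pairs of values overlapped.

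Deeper cells show a given gene more often, so cells were also thinned to 529 UMIs over the shared genes, which left out 2 *Grem1*-lineage and 83 *Lepr*-lineage cells. *Ctsl* was then found in 46 of 682 *Grem1*-lineage cells (6.74%, exact 95% interval 4.98 to 8.89%) and in 26 of 77 *Lepr*-lineage cells (33.8%, 23.4 to 45.4%). Before thinning the shares were 17.4% and 37.5%. *Ctsz* was found in 75 of 682 (8.75 to 13.6%) and 21 of 77 cells (17.7 to 38.6%), though its CPM did not differ beyond the spread of the plates. Before thinning its shares ran the other way, at 28.8% and 23.1%. Thinning kept the 77 deepest *Lepr*-lineage cells. Of 57 *Ctsz* UMIs in all 160 kept *Lepr*-lineage cells, 24 lay in the 18 cells with 20 or more marker UMIs. The part of this choice of cells in the *Ctsz* shares was not tested. *Cst3* was found in 97.5% (96.0 to 98.5%) and 89.6% (80.6 to 95.4%), and before thinning in 684 of 684 and 150 of 160 cells. Intervals cover counting error only. No cell type here is known to lack these genes, so no background share from free RNA is given.

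**Figure D2:**
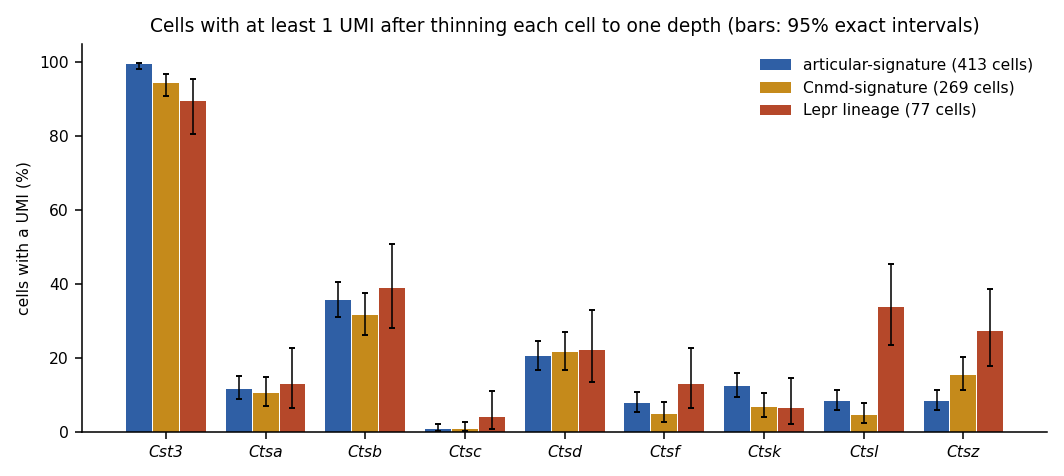
Share of cells (percent, vertical axis from 0) with at least 1 UMI of each gene after every cell was thinned to 529 UMIs, in 413 articular-signature, 269 *Cnmd*-signature and 77 *Lepr*-lineage cells. Bars are shares and whiskers exact 95% intervals, which cover counting error only. The *Lepr*-lineage bar for *Ctsl* (33.8%) stands above both *Grem1*-lineage bars (8.23% and 4.46%).

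Within the *Grem1* lineage, the second question was whether the same genes differ between articular-signature and *Cnmd*-signature cells of the same plates. *Cst3* was 3.80-fold higher in articular-signature cells, *Ctsa* 2.00-fold and *Ctsk* 1.74-fold. Thus 3 of the 6 genes with enough counts for the test passed, all of them higher, when 41.3% of 1075 tested genes passed, 19.7% higher and 21.6% lower. The median log2 fold change (articular minus *Cnmd*) was 0.67 over the 6 genes and -0.02 over all genes tested. With the plate as a block, 5 of the 6 passed, adding *Ctsb* and *Ctsd*, when 47.9% of all tested genes did. *Ctsc*, *Ctsf* and *Ctsl* were under the count filter.

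*Cst3* ranged from 31024 to 65990 CPM in articular-signature sums, with a median of 46437, and from 7038 to 16088 CPM in *Cnmd*-signature sums, with a median of 14173. Every articular-signature sum lay above every *Cnmd*-signature sum, as for 8.09% of tested genes in this direction and 4.74% in the other. The mean was 47119 ± 11809 against 12386 ± 3933 (SD, n = 8 each), a log2 fold change of 1.93 (SE 0.22, edgeR adjusted p = 4.4e-07), and articular-signature cells were higher on 8 of 8 plates. *Cnmd*-signature cells held more UMIs in all (a median of 2218.5 against 1217), yet fewer of *Cst3* (a median of 19 per cell against 30). The level also differed between plates. On plates 1, 2 and 4 it was 31024 to 39561 CPM in articular-signature and 7038 to 9311 CPM in *Cnmd*-signature sums. On plates 5 to 9 it was 46386 to 65990 and 13592 to 16088 CPM, so neither group overlapped between these sets of plates. The share of all genes that lie apart between these sets was not computed, so this is not read as particular to *Cst3*. Within each set the difference between cell groups held, with log2 fold changes of 2.21 (edgeR adjusted p = 1.2e-05) and 1.88 (edgeR adjusted p = 3.2e-08).

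**Figure D3:**
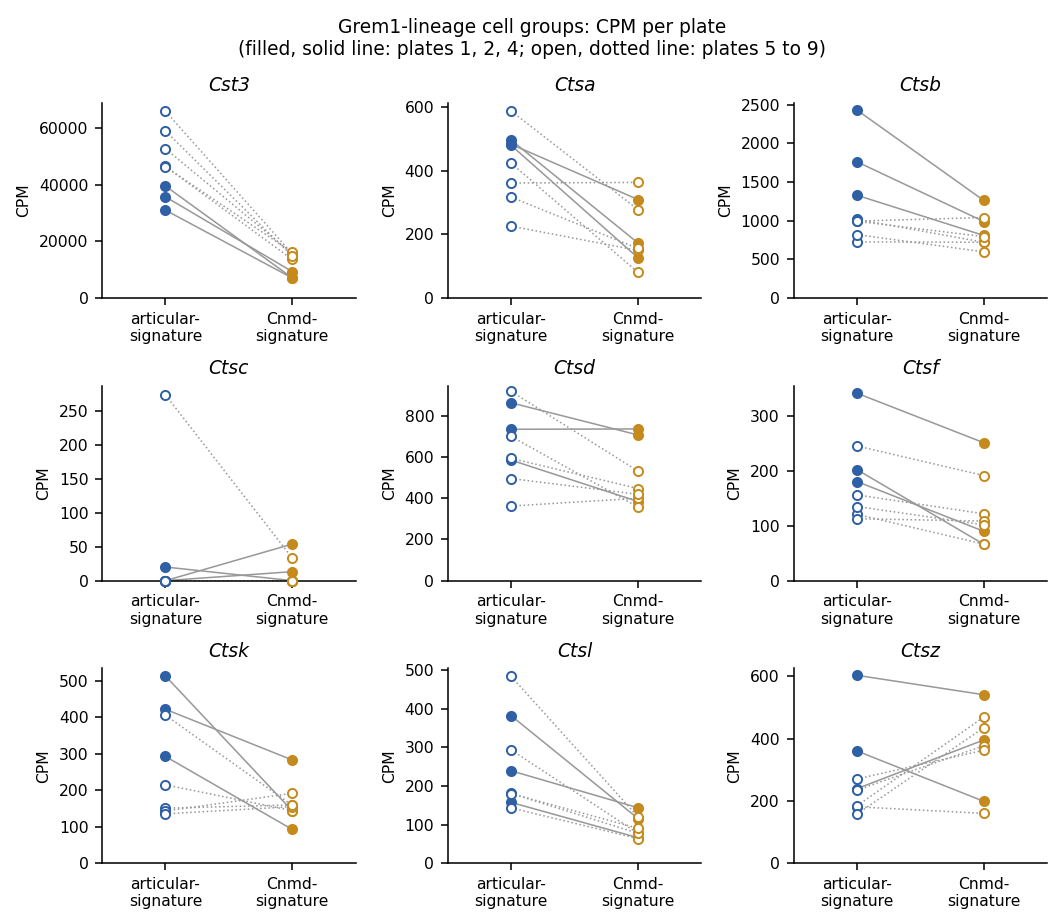
UMIs per 1000000 (CPM, vertical axes from 0, a scale for each gene) in articular-signature and *Cnmd*-signature cells of 8 *Grem1*-lineage plates. Each line joins the 2 groups of 1 plate. Filled points and solid lines are plates 1, 2 and 4, open points and dotted lines plates 5 to 9. For *Cst3*, *Ctsf* and *Ctsl* the articular-signature value is higher on 8 of 8 plates, and for *Ctsz* on 3 of 8. The share of all genes higher on 8 of 8 plates was not computed.

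Among the cysteine cathepsins, *Ctsl* was higher in articular-signature cells on 8 of 8 plates, at 143 to 483 CPM with a median of 210, against 63.9 to 144 CPM with a median of 84.1. The ranges meet at their ends. The counts were 94 and 54 UMIs in all, under the filter, and an exact permutation test that flipped the sign of each plate's difference in log2(CPM + 1) gave a mean difference of 1.37 ± 0.45 (SD, n = 8, two-sided unadjusted p = 0.0078, the smallest possible). In the fit without a count filter *Ctsl* passed (1.25, edgeR adjusted p = 0.00201 over 12514 genes). Thus *Ctsl* was lowest in *Cnmd*-signature cells and highest in the *Lepr* lineage. *Cst3* was highest in articular-signature cells, and the *Lepr* lineage and *Cnmd*-signature cells, below them, did not differ beyond their spread. *Ctsf*, also higher on 8 of 8 plates, had 73 and 67 UMIs in all. The share of all genes higher on 8 of 8 plates was not computed, so this count is not read as particular to *Ctsl* or *Ctsf*. Its levels were 113 to 342 CPM against 66.3 to 252 CPM and overlapped, and it did not pass in the fit without a count filter (0.53, edgeR adjusted p = 0.404). The same exact permutation test gave 0.63 ± 0.49 (SD, n = 8, two-sided unadjusted p = 0.0078). Where 8 of 8 plates go in the same direction, this test always gives its smallest p. For *Ctsl* and *Ctsf* that p therefore only restates the count of plates. For the other genes the unadjusted exact permutation p was 0.0078 (*Cst3*), 0.0156 (*Ctsa*), 0.0234 (*Ctsb*), 0.0313 (*Ctsd*), 0.0938 (*Ctsk*), 0.172 (*Ctsz*) and 0.875 (*Ctsc*).

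*Ctsb* ranged from 725 to 2431 CPM in articular-signature sums, with a median of 1006, and from 597 to 1261 CPM in *Cnmd*-signature sums, with a median of 801. The ranges overlapped, and the articular-signature value was higher on 7 of 8 plates. The log2 fold change was 0.54 (SE 0.23, edgeR adjusted p = 0.0621), and with the plate as a block 0.48 (SE 0.14, edgeR adjusted p = 0.00956). Between the plate sets it was 0.87 on plates 1, 2 and 4 and 0.28 on plates 5 to 9, a difference that was not tested. In the 7 *Grem1*-lineage cells with 20 or more neutrophil, macrophage or osteoclast marker UMIs, *Ctsb* was at 2532 CPM without normalisation, against 791 CPM in the 630 cells with 0 or 1. Without these 7 cells the log2 fold change was 0.54 (edgeR adjusted p = 0.0241).

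*Ctsk* ranged from 136 to 513 CPM in articular-signature sums, with a median of 254, and from 92.8 to 283 CPM in *Cnmd*-signature sums, with a median of 157. The ranges overlapped, and the articular-signature value was higher on 5 of 8 plates only. The log2 fold change of 0.80 (SE 0.29) passed (edgeR adjusted p = 0.0316), but not without plate 2 (0.72, edgeR adjusted p = 0.0761) or plate 9 (0.70, edgeR adjusted p = 0.0955), and it fell under the count filter without plate 1, 4 or 5, as it did without the 7 or the 54 cells with 20 or more, or 2 or more, marker UMIs. The exact permutation test over plates gave a mean difference of 0.66 ± 0.87 (SD, n = 8, two-sided unadjusted p = 0.0938). It passed without the 12 cells with 100 or more UMIs of 7 listed osteoblast markers (0.81, edgeR adjusted p = 0.0278). Osteoblast marker sums ran up to 37555 CPM in articular-signature and 23154 CPM in *Cnmd*-signature sums.

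*Ctsz* was the only tested gene of the set with a lower value in articular-signature cells. It ranged from 158 to 603 CPM, with a median of 237, against 160 to 540 CPM, with a median of 386, and was higher in *Cnmd*-signature cells on 5 of 8 plates. The log2 fold change was -0.37 (SE 0.28, edgeR adjusted p = 0.302). Of 106 articular-signature UMIs, 15 lay in 1 cell of plate 1 with 30 UMIs of neutrophil, macrophage and osteoclast markers. Leaving out the 7 cells with 20 or more such UMIs gave -0.66 (edgeR adjusted p = 0.0562), and leaving out the 54 cells with 2 or more gave -0.78 (edgeR adjusted p = 0.0411). *Ctsc* had 15 and 7 UMIs in all, 14 of them in articular-signature cells of plate 5, and was at 0 in both groups on plates 6, 7, 8 and 9.

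*Ctsa* ranged from 225 to 587 CPM in articular-signature sums, with a median of 451, and from 80.0 to 363 CPM in *Cnmd*-signature sums, with a median of 164. The ranges overlapped, and the articular-signature value was higher on 7 of 8 plates. The log2 fold change was 1.003 (SE 0.27, edgeR adjusted p = 0.00554), with 159 and 124 UMIs in all. On plates 5 to 9 alone it did not pass (0.88, edgeR adjusted p = 0.0722). *Ctsd*, the main aspartic protease of lysosomes, ranged from 363 to 919 CPM against 357 to 737 CPM, overlapped, and was higher in articular-signature cells on 6 of 8 plates. Its log2 fold change was 0.42 (SE 0.19, edgeR adjusted p = 0.0937), and with the plate as a block 0.41 (SE 0.14, edgeR adjusted p = 0.0247).

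**Figure D4:**
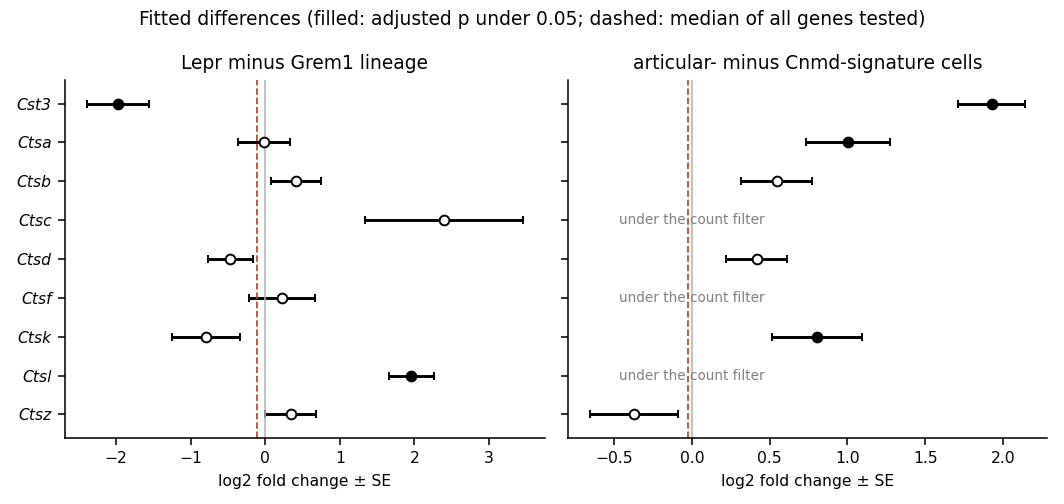
Log2 fold change with its SE (horizontal axes) for *Lepr* minus *Grem1* lineage (left) and articular-signature minus *Cnmd*-signature cells (right). Filled points have an edgeR adjusted p under 0.05, the dashed line is the median of all tested genes, and *Ctsc*, *Ctsf* and *Ctsl* were under the count filter in the second comparison. *Cst3* and *Ctsl* are filled on the left, at -1.98 and 1.96, and *Cst3*, *Ctsa* and *Ctsk* on the right, at 1.93, 1.003 and 0.80.

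Per plate, *Cst3* UMIs were set against the summed UMIs of the 6 cysteine cathepsins among the 9 genes, which cystatin C could bind as a class. Cathepsins outside the 9 genes were not in this sum, such as *Ctsh* and *Ctss* with 195 and 52 *Grem1*-lineage UMIs. UMIs are not divided by transcript length, so only the change of this ratio between groups can be read. There were 23.6 ± 11.3 *Cst3* UMIs per cathepsin UMI in articular-signature sums (SD, n = 8, range 9.80 to 39.7) and 8.04 ± 3.24 in *Cnmd*-signature sums (SD, n = 8, range 3.08 to 12.7). The articular-signature value was higher on 8 of 8 plates, though the ranges overlapped. On the *Lepr*-lineage plates the ratio was 2.56 and 2.20, below every *Grem1*-lineage sum. Plates 1, 2 and 4 gave the lowest ratios within both *Grem1*-lineage groups.

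**Figure D5:**
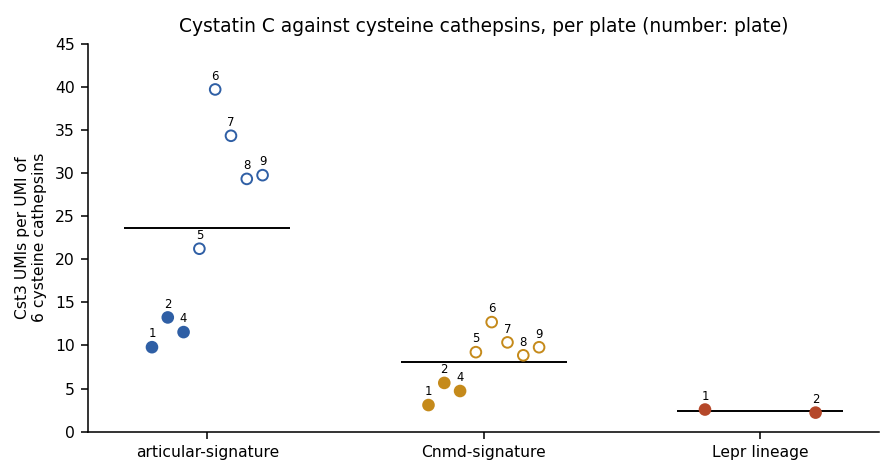
*Cst3* UMIs per UMI of the 6 cysteine cathepsins (*Ctsb*, *Ctsc*, *Ctsf*, *Ctsk*, *Ctsl* and *Ctsz*; vertical axis from 0) in 8 articular-signature, 8 *Cnmd*-signature and 2 *Lepr*-lineage sums. Points are plates, numbered, with plates 1, 2 and 4 of the *Grem1* lineage filled and plates 5 to 9 open, and lines are means. The ratio runs from 9.80 to 39.7 in articular-signature sums, from 3.08 to 12.7 in *Cnmd*-signature sums, and is 2.56 and 2.20 in the *Lepr* lineage.

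Other lysosome genes were compared through lists. From *Gnptab* onward in the alphabet, the genes of the lysosome list had no *Grem1*-lineage row used here and could not be tested. *Lamp1*, *Lamp2*, *Npc2* and *Psap* are among them, so the list covers only a part of the lysosome. Of 71 lysosome genes, 12 were tested between lineages and 1 passed. *Fuca1*, a fucosidase, was lower in the *Lepr* lineage (300 ± 26.9 CPM, n = 2, against 721 ± 150 CPM, n = 8, log2 fold change -1.26, edgeR adjusted p = 0.00358). The list's median was -0.08, against -0.11 over all genes. Of 24 V-ATPase genes, 14 were tested and 3 passed. *Atp6ap1*, an accessory subunit (-1.61, edgeR adjusted p = 0.00376), and *Atp6v0e* (-1.001, edgeR adjusted p = 0.00828) were lower and *Atp6v0e2* (1.34, edgeR adjusted p = 0.0225) was higher, at a list median of -0.12. The 2 *Lepr*-lineage values of *Atp6v0e2* spread widely (452 ± 452 CPM, SD). Beside these 1 of 12 and 3 of 14, 29.0% of all genes tested between lineages were called.

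Between the cell groups, 5 lysosome genes were tested. *Gm2a*, the activator of ganglioside breakdown (1.23, edgeR adjusted p = 0.00355), and *Fuca1* (1.02, edgeR adjusted p = 9.0e-05) were higher in articular-signature cells, and *Cd63*, a tetraspanin of late endosomes and lysosomes, was lower (-0.55, edgeR adjusted p = 0.00616) on 8 of 8 plates. Of 8 tested V-ATPase genes, 3 were higher and none lower. These were *Atp6v1e1* (1.28, edgeR adjusted p = 0.00373), *Atp6ap1* (0.61, edgeR adjusted p = 0.015) and *Atp6v0e* (0.44, edgeR adjusted p = 0.0197). The medians were 0.42 for the lysosome and 0.34 for the V-ATPase list, against -0.02 over all genes. The share of all tested genes called, 41.3%, stands beside these 3 of 5 and 3 of 8.

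Other cathepsins and cystatins with at least 20 UMIs in a lineage were *Ctsg*, *Ctsh*, *Ctss*, *Ctsw*, *Cst6* and *Cstb*. *Ctsg*, a granule protease of neutrophils, and *Ctss*, a cysteine protease of antigen-presenting cells, had most of their UMIs in few cells. In the *Grem1* lineage 98 of 112 *Ctsg* UMIs and 46 of 52 *Ctss* UMIs lay in the 7 cells with 20 or more marker UMIs, and in the *Lepr* lineage 55 of 79 and 27 of 32 lay in 18 such cells. A single *Lepr*-lineage cell held 42 *Ctsg* UMIs. Other *Lepr*-lineage cells also held *Ctsg*: 18 of the 137 cells with 2 to 19 marker UMIs and 4 of the 5 with 0 or 1. Without normalisation it was at 1123 CPM in the 18 cells, 262 CPM in the 137 and 1837 CPM in the 5 (5 *Ctsg* UMIs). On the 2 *Lepr*-lineage plates *Ctsg* had 1 and 78 UMIs and *Ctss* 32 and 0, so each came almost wholly from a different plate. Neither passed between lineages (edgeR adjusted p = 0.128 and 0.221). *Ctsh*, an aminopeptidase, had 195 UMIs in 136 of 684 *Grem1*-lineage cells and 24 UMIs in 20 of 160 *Lepr*-lineage cells (-0.24, edgeR adjusted p = 0.77). It was at 0.70 between the cell groups (edgeR adjusted p = 0.145). *Cstb*, the intracellular inhibitor stefin B, did not pass in either comparison (-0.43, edgeR adjusted p = 0.384, and 0.30, edgeR adjusted p = 0.413). *Cst6*, a secreted cystatin, had 53 UMIs in 47 of 414 articular-signature cells, 7 in 270 *Cnmd*-signature cells and 3 in 160 *Lepr*-lineage cells, and did not pass between lineages (edgeR adjusted p = 0.202). *Ctsw* had 28 UMIs in 20 *Grem1*-lineage cells and was not found in 160 *Lepr*-lineage cells, where a count of 0 allows up to 3 UMIs. *Kng1* and *Kng2*, kininogen genes with cystatin domains, were listed for the *Lepr* lineage only among the genes used here, with 142 UMIs in 78 and 129 UMIs in 77 of its 160 cells.

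Over the 18 sums (8 articular-signature, 8 *Cnmd*-signature and 2 *Lepr*-lineage), the genes most like *Cst3* by Pearson's r of log2(CPM + 1), among 2590 genes with at least 50 CPM on average, were *Gas1* (0.94), *Ecm2* (0.94) and *Dst* (0.93). For *Ctsl* they were *Ddx23* (0.87), *Gm29443* (0.86) and *Gm44090* (0.85), and for *Ctsa* *Card19* (0.82), *Anxa1* (0.81) and *Eif5* (0.78). Genes near *Ctsb* included *Atp2b4* (0.71) and *Cdc42* (0.70), and *Ctsd* was nearest to *Anapc16* (0.70), *Akap9* (0.69) and *Dnajc4* (0.69). For *Ctsk* they were *Gm14597* (0.74), *Dnajc15* (0.73) and *Atraid* (0.70), and for *Ctsz* *Eef1d* (0.78), *Gm12848* (0.69) and *Gm4761* (0.68). These are descriptions over sums that share plates, depth and the split of cells.

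By the GENCODE annotation of GRCm38, *Cst3* lies on the minus strand at chr2:148871722-148875692, *Ctsl* on the minus strand at chr13:64359337-64370890, *Ctsa* on the plus strand at chr2:164832873-164841032 and *Ctsd* on the minus strand at chr7:142375911-142388038. Exons of 5 of the 9 genes overlap exons of other genes. These are *Ctsa* (with *Neurl2* and *Pltp*), *Ctsb* (*Fdft1*) and *Ctsz* (*Nelfcd*) on the other strand, *Ctsd* (*Gm49369*) on the same strand, and *Ctsl* (*Gm47123* on the other strand and the pseudogene *Gm49230* on the same). As the sources used here do not state the strand setting of the counting, reads in these stretches may be shared or left out. Promoter windows of 270 bases, from 250 bases before a RefSeq start to 20 bases after it, were at hand for 8 of the 9 genes. The motif CACGTG, bound by factors that include the lysosomal regulator TFEB, was found on searching both strands in windows of *Ctsa*, *Ctsd*, *Ctsf* and *Ctsl*, and in 7.45% of 27025 genes with a window. The longer motif TCACGTGA, which contains it, was found for *Ctsa* and *Ctsd* and for 1.04% of genes. The windows of the 2 genes that differed between lineages and of the 2 with the longer motif are shown from RefSeq (GRCm38.p6), 5′ to 3′ on the strand of the gene, with CACGTG in capitals. The windows are chr2:148875493-148875762 (minus) for *Cst3*, chr13:64370501-64370770 (minus) for *Ctsl*, chr2:164833523-164833792 (plus, the second of 2 starts) for *Ctsa* and chr7:142387808-142388077 (minus) for *Ctsd*.
Cst3: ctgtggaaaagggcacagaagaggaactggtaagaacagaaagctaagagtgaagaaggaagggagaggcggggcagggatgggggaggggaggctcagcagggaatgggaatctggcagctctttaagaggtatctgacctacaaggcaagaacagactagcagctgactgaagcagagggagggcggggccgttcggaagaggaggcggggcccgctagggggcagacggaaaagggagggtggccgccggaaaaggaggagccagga
Ctsl: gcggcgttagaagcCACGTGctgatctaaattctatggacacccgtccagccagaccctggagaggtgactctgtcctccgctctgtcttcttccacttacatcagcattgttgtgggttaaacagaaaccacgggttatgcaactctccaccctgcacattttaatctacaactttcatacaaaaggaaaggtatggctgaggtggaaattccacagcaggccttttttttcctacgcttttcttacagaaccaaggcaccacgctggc
Ctsa: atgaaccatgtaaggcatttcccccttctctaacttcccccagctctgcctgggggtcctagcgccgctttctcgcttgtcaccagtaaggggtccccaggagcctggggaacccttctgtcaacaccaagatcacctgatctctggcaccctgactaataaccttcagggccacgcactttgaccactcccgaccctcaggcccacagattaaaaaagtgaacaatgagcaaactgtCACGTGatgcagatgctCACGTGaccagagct
Ctsd: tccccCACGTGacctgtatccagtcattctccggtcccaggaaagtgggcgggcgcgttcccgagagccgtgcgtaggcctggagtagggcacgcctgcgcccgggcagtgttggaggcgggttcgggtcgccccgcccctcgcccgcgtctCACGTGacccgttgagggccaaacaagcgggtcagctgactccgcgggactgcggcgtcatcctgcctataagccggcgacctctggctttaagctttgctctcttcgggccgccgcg
The motif begins at base -236 from the start for *Ctsl*, at -12 and 6 for *Ctsa* and at -245 and -98 for *Ctsd*, counting the start as 1, and these letters are absent from the *Cst3* window. Factor binding was not measured.

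In the 84 *Grem1*-lineage wells left out for too few genes, with a median of 501.5 UMIs, *Cst3* was at 25776 CPM and was found in 82 wells, against 20564 CPM without normalisation in the kept cells. *Ctsb* was at 829 CPM in those wells and at 833 CPM in the kept cells.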

How the data were processed

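UMI counts of 10 plates (8 *Grem1*-lineage, 2 *Lepr*-lineage) were analysed. The authors deposited whole-number UMI counts per gene and well without normalisation. Their processing notes name UMI-tools, STAR, featureCounts, SAMtools, Seurat and mm10, without versions or roles. In the *Grem1* lineage only the 29183 complete rows up to Gm5763 were used, and 1 incomplete row was left out. Genes beyond it were not analysed here for that lineage. Libraries are depth-limited: plate sums held 59981 to 179071 UMIs, so differences in genes of few UMIs may not be detectable.

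Wells with at least 350 detected genes were kept, and no doublet caller was run. UMIs over the shared genes were summed per plate, or per plate and cell group (at least 10 cells), and tested with edgeR 4.0.16 in R 4.3.3 (TMM, filterByExpr, quasi-likelihood, Benjamini-Hochberg at 0.05). SEs are the log2 fold change over the square root of F. DESeq2 1.42.0 was an alternative. Both sums of a plate come from 1 library: their deviations from the group means correlated at 0.267 on average (0.141 to 0.414, above 0.1 on 8 of 8 plates) against -0.038 between plates. The sums are thus paired by plate, and blocked values stand beside results they change. The scripts were tested on simulated data. Intervals are Clopper-Pearson. The 9 genes, the lists and the alternatives were chosen with earlier results of these data known. Named genes are the 9 members, other cathepsins and cystatins with at least 20 UMIs, at most 3 called lysosome and V-ATPase genes per direction, and the 3 most similar genes of members with at least 200 UMIs. A similar gene of *Ctsb* is not reported here.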

Additional observations from a re-analysis of the deposited data

Results flagged for a closer look

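Of 27 groups of 8 plates tested for a plate far from the others (by its gap to the next plate against the group's whole range, Dixon's test), 4 held one. Chance flags about 1 in 20 independent groups, but these groups are not independent. All *Grem1*-lineage cells include the articular-signature cells, and *Ctsc* on plate 5 and *Ctsz* on plate 1 were each flagged in both. The 4 flags are therefore not read as more than chance gives. Over all *Grem1*-lineage cells, plate 5 stood out for *Ctsc* at 116 CPM, with the next plate at 24.3 CPM. In articular-signature cells the same plate was at 274 CPM, with the next at 20.1 CPM. Of the 22 *Ctsc* UMIs, 11 came from 1 cell of plate 5. Plate 1 stood out for *Ctsz* at 528 CPM over all *Grem1*-lineage cells, with the next plate at 314 CPM, and at 603 CPM in articular-signature cells, with the next at 360 CPM. The highest cell there held 15 *Ctsz* and 39 *Ctsb* UMIs.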

How the results depend on the processing

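Of 220 log2 fold changes of the 9 genes between lineages recomputed under the alternatives, 193 kept their direction and their side of the threshold, and of 123 between the cell groups 104 did. Between the cell groups *Cst3* passed in 21 of 21 alternatives (1.77 to 2.21). Counts of all genes called between lineages were 529 to 850 with 1 plate left out (529 without *Lepr*-lineage plate 2), 489 and 451 with only plates 1 and 2 of each lineage with and without a replicate block, and 286 without cells with 2 or more marker UMIs. The 9 genes gave 1 call under each of the last 3 settings and 1 without the 20 most abundant genes, which include *Cst3*. They gave 4 without cells with 20 or more marker UMIs, an alternative added after seeing the data. In the same order, 25.5%, 23.6%, 12.2%, 29.3% and 24.7% of all tested genes were called. With 1 *Grem1*-lineage plate left out the 9 genes gave 2 to 3 calls, when 27.6 to 29.5% of all tested genes passed. Between the cell groups the count was 385 to 441 with 1 plate left out, 710 without a count filter and 239 on plates 1, 2 and 4. Calls among the 9 genes were then 2 to 4 with 1 plate left out and 1 on plates 5 to 9. They were 5 with the replicate block or without cells with 2 or more marker UMIs. Of all tested genes, 35.3 to 40.0% were called with 1 plate left out and 32.2% on plates 5 to 9. The share was 47.9% with the block and 46.4% without those cells. Genes under the count filter could not be called. The replicate block (plate) turned no direction.

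Between lineages *Ctsa* turned to 0.030 under DESeq2 and with its size factors, 0.046 without the 20 most abundant genes, 0.093 on plates 5 to 9, 0.59 against *Cnmd*-signature cells and 0.26 without cells with 20 or more marker UMIs, and ran from -0.49 to 0.22 with 1 plate left out. *Ctsb* turned to -0.11 with the gene minimum over shared genes and ran from -0.22 to 0.73 with 1 plate left out, and *Ctsz* from -0.064 to 0.54. Both lowest values came without *Lepr*-lineage plate 2. Leaving out cells with 2 or more marker UMIs kept only 5 *Lepr*-lineage cells and moved the median of all genes to -5.88. *Ctsf* was then at -6.71, *Ctsk* at 0.67, *Ctsz* at -1.82, *Cst3* at -3.89 and *Ctsl* at 0.64 (edgeR adjusted p = 0.589). Between the cell groups *Ctsz* turned to 0.091 on plates 1, 2 and 4. The cause was not tested. Thinning lowered the share of *Grem1*-lineage cells with a UMI to 97.5% for *Cst3* and 6.74% for *Ctsl*.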
